A study of Macaca mulatta with 49 samples.

Results

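CD8 and CD4 T cells of the central memory type (TCM) were compared within each of 12 rhesus macaques, in sorted blood samples taken before any antibody was given. Samples were chosen by their labels, as those taken before treatment, and comprised 12 CD8 and 12 CD4 samples, 1 of each per animal. They are 24 of the 48 samples of the study and filled 25 of its 49 arrays, since a single CD8 sample had 2 arrays, whose values were averaged. In the later part of the study, 6 of these animals received an anti-IL-15 antibody and 6 an IgG1 control antibody, so the arms are only future assignments here. Total RNA was amplified and hybridised to human Illumina BeadChips, whose probes were designed on human sequence. The sort gates, ages and sexes are not given in the sources used here.

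Central memory T cells circulate between blood and lymph nodes and divide again on re-exposure to antigen. CD8 T cells recognise peptides on class I molecules and kill target cells with granzymes and perforin, and in the thymus their fate is set with the transcription factor RUNX3. CD4 T cells recognise peptides on class II molecules, and their helper fate is set with ZBTB7B, also called ThPOK. Memory CD4 cells include follicular helper, regulatory and other subsets, which were not sorted apart here. The values below are log2 intensities after background correction and quantile normalization. Differences are CD8 minus CD4 within animals, with the moderated standard error (SE) of limma over 12 pairs. In bulk samples, fewer cells of a type and less RNA per cell cannot be told apart.

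The coreceptor genes bore out the CD8 label. CD8A, which encodes the CD8 alpha chain, lay between 12.37 and 13.31 (median 12.93) in CD8 samples and between 4.88 and 7.17 (median 5.67) in CD4 samples. The groups did not overlap, and the difference was 7.16 ± 0.16, or 143-fold (limma adjusted p = 1.65e-17). The CD4 samples with the highest CD8A were those of anti-IL-15 animals 1 (6.62) and 2 (7.17). CD8B, the beta chain, was dim, between 4.87 and 6.06 (median 5.68) in CD8 samples, and was detected in 10 of 12 CD8 and in 0 of 12 CD4 samples, which makes it at least 1.45-fold higher (adjusted p = 1.16e-06). The probe of the CD4 gene was detected in 0 of 24 samples, so it could not check the other label. CD3D, part of the T cell receptor complex, ran from 12.92 to 13.41 in CD8 and from 12.82 to 13.24 in CD4 samples, overlapping, with a difference of 0.09 (adjusted p = 0.391).

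Across the transcriptome, cell type was the main axis. Detection was found for 24.2% to 29.0% of probes on CD8 arrays and for 25.4% to 31.5% on CD4 arrays, and the number of arrays limits the precision. Principal component 1 accounted for 29.4% of the variance and ranged from -37.80 to -4.16 in CD8 and from -4.76 to 27.4 in CD4 samples. The CD4 sample of anti-IL-15 animal 3 stood apart, since its median correlation across genes with other CD4 samples (0.952) was below that with CD8 samples (0.955). Of 8193 genes tested, 1413 (17.2%) were higher in CD8 and 1920 (23.4%) higher in CD4 at an adjusted p below 0.05. Without anti-IL-15 animal 3 the counts were 1668 and 2104. The counts of each gene list below are to be read against 17.2% and 23.4%. They are descriptive only, since lists and members were chosen with earlier results of these data known and some genes are in several lists. Most differences were small: the median absolute difference of the called genes was 0.47, and 77 genes (0.94%) were called and over 2-fold higher in CD8 and 96 (1.17%) in CD4. For 50 genes (0.61%) all CD8 samples lay above all CD4 samples, and for 44 (0.537%) the reverse held. Called genes with the same direction in all 12 animals numbered 706.

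Measures that moved with cell type apply to every result below. Sorted cells ranged from 30000 to 116000 (median 66500) in CD8 samples and from 250000 to 958000 (median 522000) in CD4 samples, with no overlap. Fewer CD8 than CD4 cells were sorted in 12 of 12 animals, 8.2 times fewer in geometric mean (exact sign-flip test, two-sided p = 0.0004883, the smallest 12 pairs allow). With log2 of this number as a covariate, 30 genes were higher in CD8 and 12 higher in CD4 in limma, and the SE was a median 4.18 times as large, so cell type and sorted number can hardly be told apart. The split also depended on scaling. Where arrays were scaled to a common median in place of quantile normalization, the median difference of all genes was -0.16 against 0.0003, and 519 genes were higher in CD8 and 2970 higher in CD4, so that 14.9% of calls in place of 42.4% were higher in CD8. Members of the gene lists that lost a call higher in CD8 under median scaling are named with their lists below. Globin RNA varied widely between animals: the summed intensity of 6 erythroid markers ran from 190.3 to 27500 in CD8 and from 531.4 to 22230 in CD4 samples. With the brightest probe per gene, 0 of the 3 tested erythroid genes were called in limma, but a second HBA2 (alpha globin) probe, detected in all 24 samples, was at 8.94 in CD8 and 7.94 in CD4 on average (difference 1.01, adjusted p = 0.00023 over probes). Leaving out anti-IL-15 animal 2 gave 1 erythroid gene higher in CD8, and leaving out animal 3 of that arm gave 2. The part of globin RNA in the results was not tested.

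The genes highest in CD8 TCM were led by killing machinery. Besides CD8A, the 15 named were the granule genes CTSW, GZMM, GZMK, GNLY, GZMH, CST7 and PRF1, the transcription factor EOMES, the lectin receptor KLRD1, the noncanonical poly(A) polymerase TENT5A, and BEND5, SLC4A11, PLAC8 and PTPRF. GZMM, granzyme M, lay between 8.81 and 9.87 (median 9.32) in CD8 and between 5.05 and 6.88 (median 5.84) in CD4 samples. The lowest CD8 sample was above the highest CD4 sample, and the difference was 3.45 ± 0.14, or 10.9-fold (adjusted p = 4.12e-13). GZMK, granzyme K, lay between 7.39 and 10.88 (median 9.47) against 5.12 to 6.95 (median 5.93). Its difference of 3.24 ± 0.18 (9.43-fold, adjusted p = 1.02e-10) came with a wide spread among CD8 samples. CTSW, cathepsin W, was detected in 12 of 12 CD8 and 0 of 12 CD4 samples, with 8.04 to 9.19 (median 8.33) in CD8, and was at least 10.3-fold higher (adjusted p = 1.71e-16). TENT5A differed by 2.64 ± 0.12 and BEND5, which encodes a DNA-binding protein with a BEN domain, by 2.41 ± 0.13. PTPRF, a receptor phosphatase, differed by 2.15 ± 0.12 and PLAC8 by 2.27 ± 0.17, both with overlap between the groups. SLC4A11, a membrane transporter, differed by 2.35 ± 0.19, but by 0.07 in IgG1 animal 3, whose CD8 sample was at 5.54 against 6.99 to 8.39 in the others.

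**Figure D1:**
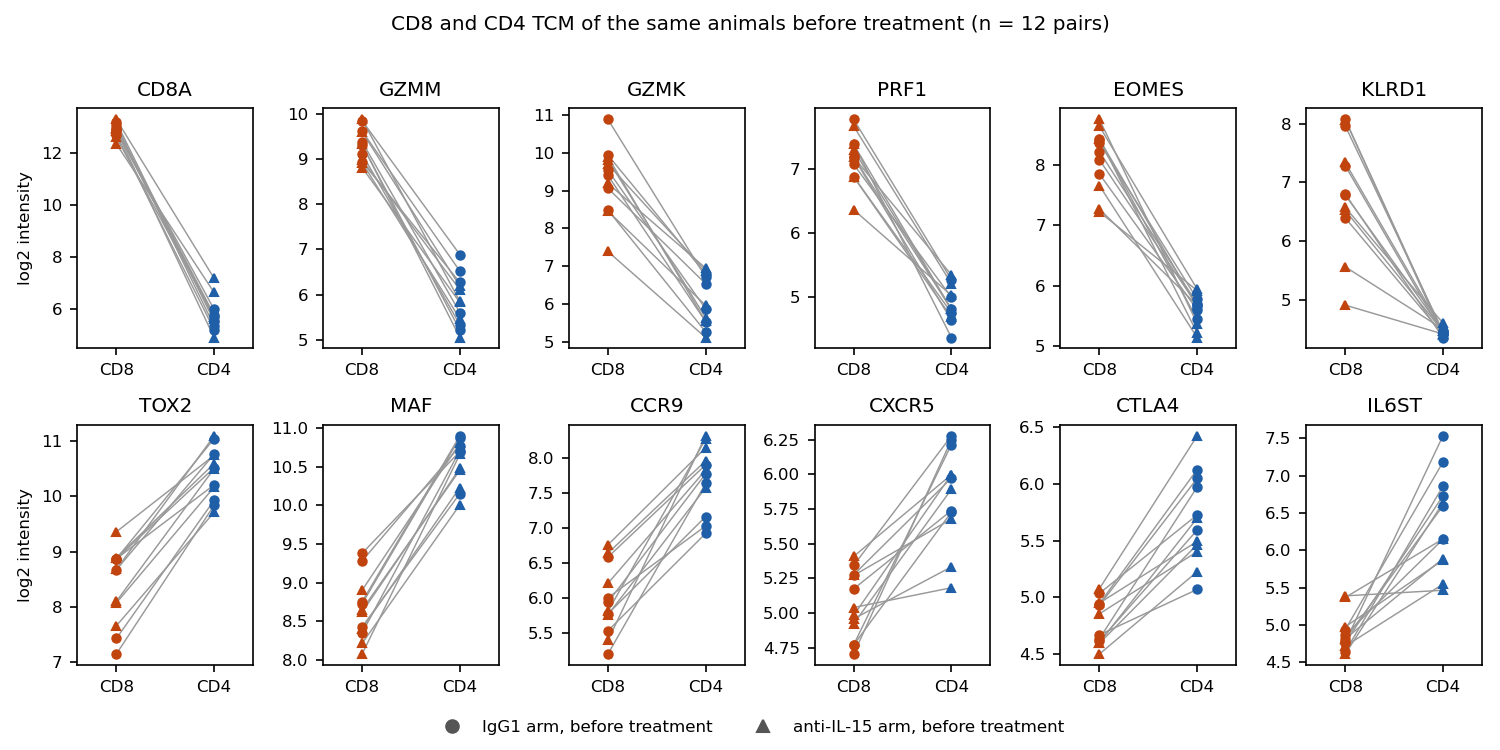
Log2 intensity (vertical axis) of 12 genes in CD8 and CD4 TCM before treatment, with grey lines joining the samples of 1 animal, circles for animals of the IgG1 arm and triangles for those of the anti-IL-15 arm. The top genes were higher in CD8 in 12 of 12 animals and the bottom ones higher in CD4 in 12 of 12; KLRD1 fell close to the CD4 level in 1 CD8 sample (4.92), and CXCR5 and CTLA4 overlapped between the groups.

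The granule list held cargo proteins and genes of granule maturation and transport. Of 19 listed genes, 13 passed the filter on dim probes, and 9 of these were higher in CD8 and 0 higher in CD4, with a median difference of 2.29, also with the 2 genes not detected in CD4 at their bound; over all genes the median was 0.0003. All CD8 samples lay above all CD4 samples for 8 of the 13, against 0.61% of all genes. CTSW, NKG7, PRF1 and GZMH passed the filter through CD8 samples alone, a route that favours calls in this direction. In CD4, PRF1 was detected in 3 of 12 samples and GZMH in 4 of 12, so their CD4 values lay mostly at the background. PRF1, the pore-forming perforin, lay between 6.36 and 7.77 (median 7.18) in CD8 and between 4.38 and 5.35 (median 4.82) in CD4, 4.87-fold apart (2.29 ± 0.12, adjusted p = 2.68e-11). GNLY, the membrane-lysing granulysin, differed by 2.96 ± 0.14, GZMH by 2.61 ± 0.15, and CST7, the inhibitor cystatin F, by 2.37 ± 0.13. NKG7, a granule membrane protein, was detected in 12 of 12 CD8 and 0 of 12 CD4 samples and was at least 2.15-fold higher (adjusted p = 7.32e-06). GZMA was the weakest of the granzymes, at 4.98 to 7.16 (median 6.36) against 4.55 to 5.70 (median 5.03), 1.04 ± 0.15 and higher in CD8 in 11 of 12 animals. The genes of granule maturation and transport that many cells use had differences of -0.15 (RAB27A; second probe -0.53, adjusted p = 0.0186 over probes), -0.12 (SRGN), -0.05 (CTSC) and -0.05 (LAMP1) and did not pass; under median scaling RAB27A was at -0.40 and higher in CD4. GZMB, FASLG and UNC13D did not pass the filter, which on human probes says nothing of their transcription. Under median scaling 9 genes were higher in CD8 and 1 higher in CD4, and with the sorted cell number as covariate 4 were higher in CD8.

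Several receptors shared with natural killer (NK) cells were higher in CD8. Of 21 listed, 8 were tested, 5 were higher in CD8 and 0 higher in CD4 (1 without anti-IL-15 animal 2), with a median of 0.74. KLRD1 (CD94), the partner chain of NKG2 receptors, was detected in 11 of 12 CD8 and 0 of 12 CD4 samples and lay between 4.92 and 8.07 (median 6.80) in CD8, at least 3.51-fold higher (adjusted p = 1.87e-07). KLRG1, an inhibitory lectin receptor of differentiated T cells, lay between 4.75 and 8.30 (median 6.59) in CD8 and between 4.34 and 5.14 (median 4.71) in CD4, a difference of 1.92 ± 0.22 (adjusted p = 2e-06). KLRG1 was detected in 2 of 12 CD4 samples, so the spread of both genes in CD4 lay at the background. Both passed the filter through CD8 samples alone, a route that favours calls higher in CD8. CD96, a nectin-like receptor, differed by 1.35 ± 0.11, HCST (DAP10), the adaptor of NKG2D, by 0.77 ± 0.09, and NCR3 by 0.60 ± 0.13. Among NK markers, FCGR3A (CD16) was detected in 12 of 12 samples of each cell type, at means of 8.26 in CD8 and 8.42 in CD4. TYROBP was detected in 9 of 12 CD8 and 6 of 12 CD4 samples, NCAM1 in 6 and 2 and KLRC1 in 5 and 3. KLRF1 was detected in 3 and 1, KIR3DL1 in 2 and 0 and SH2D1B in 0 and 1. NCR1, FCER1G and SPON2 were detected in 0 of 24 samples. Of the 3 NK markers tested, 0 were called, and 1 in each direction under median scaling. Without anti-IL-15 animal 3 or without IgG1 animal 3, 2 were higher in CD8, and 1 without IgG1 animal 4. The summed intensity of the 10 with a probe ran from 313.3 to 620.5 in CD8 and from 347.2 to 586.5 in CD4 samples. The part of NK cell RNA in these differences was not tested. ZBTB16 (PLZF), a transcription factor of innate-like T cells, was higher in CD8 in 11 of 12 animals, with 4.83 to 7.54 (median 6.39) against 4.56 to 6.09 (median 5.19), a difference of 1.11 ± 0.18 (adjusted p = 9.95e-05). The innate-like markers KLRB1 and SLC4A10 were detected in 0 of 24 samples.

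Lineage transcription factors differed in both directions. EOMES, which drives memory and effector CD8 fate, lay between 7.22 and 8.75 (median 8.29) in CD8 and between 5.15 and 5.95 (median 5.67) in CD4, with no overlap, 5.71-fold apart (2.51 ± 0.15, adjusted p = 1.65e-10). RUNX3 lay between 10.46 and 10.99 (median 10.73) against 9.62 to 10.43 (median 10.18), again with no overlap, but only 1.54-fold apart (0.63 ± 0.10). ZNF683 (Hobit), known from tissue-resident T cells, also had no overlap, at 0.77 ± 0.11, while ID2, an inhibitor of E proteins, differed by 1.04 ± 0.14 with overlap. TBX21 (T-bet), the other T-box factor of effector cells, lay between 4.81 and 6.30 (median 5.52) in CD8 and between 4.87 and 6.10 (median 5.58) in CD4 and differed by -0.01 ± 0.14 (adjusted p = 0.957), with 6 animals in each direction. Of 10 CD8 lineage factors tested of 13 listed, 6 were higher in CD8, IRF8 (0.46 ± 0.13) and STAT4 (0.28 ± 0.10) being the others; STAT4 was at 0.01 and not called under median scaling. The remaining calls were opposite, BHLHE40 at -0.61 ± 0.12 and PRDM1 (Blimp-1) at -0.54 ± 0.15, although a second probe of PRDM1 gave 0.01. The median of these 10 was 0.37.

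On the CD4 side, 4 of 10 helper lineage factors tested, of 13 listed, were higher in CD4 and 0 higher in CD8, with a median of -0.21. TOX2, a factor of follicular helper differentiation, lay between 7.15 and 9.36 (median 8.68) in CD8 and between 9.71 and 11.10 (median 10.51) in CD4. The groups did not overlap, and the difference of -2.04 ± 0.12 made TOX2 4.11-fold higher in CD4 (adjusted p = 1.52e-10), while its dimmer probe gave -0.19. MAF, a factor of interleukin production in helper cells, lay between 8.08 and 9.38 (median 8.63) in CD8 and between 10.01 and 10.90 (median 10.68) in CD4, 3.76-fold higher in CD4 (-1.91 ± 0.10, adjusted p = 6.86e-11). Both remained called with the sorted cell number as covariate, at -2.58 and -2.12. RORA differed by -0.48 ± 0.13, with its other 3 probes between -0.89 and -0.45, and GATA3 by -0.31 ± 0.11. ZBTB7B, the gene of ThPOK, was dim in both cell types, 4.92 to 6.04 (median 5.31) in CD8 and 4.78 to 5.76 (median 5.15) in CD4, with a difference of 0.19 ± 0.13 (adjusted p = 0.252). BCL6 and FOXP3, which define follicular helper and regulatory cells, did not pass the filter.

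**Figure D2:**
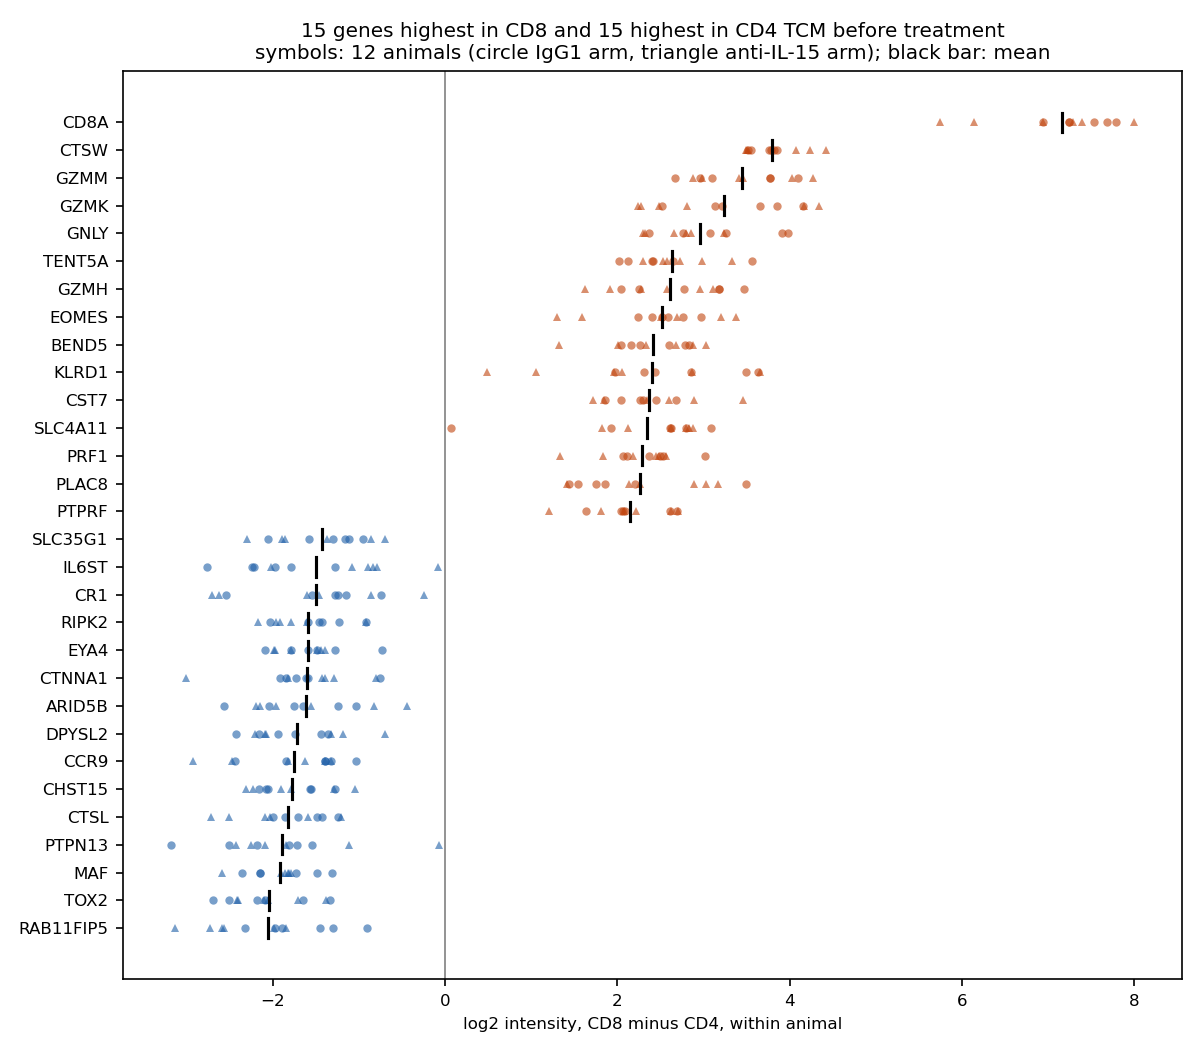
Difference in log2 intensity, CD8 minus CD4, within each of 12 animals (horizontal axis; circles for the IgG1 arm, triangles for the anti-IL-15 arm, black bars for the mean) for the 15 genes highest in CD8 and the 15 highest in CD4. CD8A stands apart at 7.16, the other means run from 3.79 (CTSW) to 2.15 (PTPRF) and from -1.43 (SLC35G1) to -2.06 (RAB11FIP5), and SLC4A11, IL6ST and PTPN13 come within 0.1 of zero in 1 animal each.

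The genes highest in CD4 TCM had smaller differences than those highest in CD8. Besides TOX2 and MAF, the 15 named were RAB11FIP5, PTPN13, CTSL, CHST15, CCR9, DPYSL2, ARID5B, CTNNA1, EYA4, RIPK2, CR1, IL6ST and SLC35G1. CTSL, the lysosomal protease cathepsin L, lay between 8.46 and 10.16 (median 9.51) in CD8 and between 10.63 and 12.16 (median 11.21) in CD4, with no overlap and 3.53-fold higher in CD4 (-1.82 ± 0.12, adjusted p = 1.77e-09). EYA4, a transcriptional coactivator, was detected in 0 of 12 CD8 and 12 of 12 CD4 samples, at 5.11 to 7.01 (median 6.07) in CD4, and was at least 1.98-fold higher there (adjusted p = 1.7e-09). PTPN13, a phosphatase, was detected in 0 of 12 CD8 and 11 of 12 CD4 samples and was at least 2.72-fold higher in CD4 (adjusted p = 2.81e-07). RAB11FIP5, an effector of the recycling GTPase RAB11, had a difference of -2.06 ± 0.16, DPYSL2 of -1.72 ± 0.13, ARID5B, a chromatin-binding protein, of -1.61 ± 0.15 and CHST15, a sulfotransferase, of -1.77 ± 0.12. RIPK2, a kinase of NOD receptor signalling, differed by -1.58 ± 0.11 and CTNNA1, the adherens junction protein alpha-catenin, by -1.59 ± 0.14. CR1, a complement receptor, differed by -1.50 ± 0.18 with overlap, and its other probes by -0.58 and -0.51. Of the 30 named genes, 22 had groups that did not overlap, 12 of the CD8 and 10 of the CD4 ones. Over all genes these shares were 0.61% and 0.537%. The 30 were chosen from these data for large differences of the same sign in 12 animals. Lack of overlap and lasting calls were thus largely set by that choice and are no added support. All 30 remained called in the same direction under median scaling, but 7 with the sorted cell number as covariate, namely CD8A, CTSW, GZMM, GNLY, PRF1, TOX2 and MAF.

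Follicular helper and regulatory T cell genes held calls higher in CD4 only. Of 14 listed follicular helper genes, 9 were tested, 6 were higher in CD4 and 0 higher in CD8, with a median of -0.36. TOX2 and MAF are among these 6 and were also counted with the helper lineage factors. Besides TOX2 and MAF, CXCR5, the receptor that guides cells into B cell follicles, lay between 4.71 and 5.41 (median 5.01) in CD8 and between 5.18 and 6.28 (median 5.93) in CD4. The difference of -0.80 ± 0.12 (adjusted p = 3.01e-05) had the same direction in 12 of 12 animals, with a small overlap. CD200, an immunoregulatory ligand, differed by -0.72 ± 0.14, but its second probe gave 0.17. IL6R and SH2D1A (SAP), an adaptor of SLAM receptors, differed by -0.36 ± 0.12 and -0.30 ± 0.08, while ICOS (-0.16; -0.43 and called under median scaling) and BTLA (0.08) did not pass. Of 15 regulatory T cell genes, 5 were tested and 3 were higher in CD4, with a median of -0.56, or -0.07 with TNFRSF18 at its bound. CTLA4, an inhibitory receptor, lay between 4.50 and 5.08 (median 4.76) in CD8 and between 5.07 and 6.42 (median 5.65) in CD4, the groups overlapping by 1 narrow margin (-0.90 ± 0.10, adjusted p = 1.59e-06), and its other 2 probes gave -0.59 and -0.69. CTLA4 was detected in 2 of 12 CD8 and 12 of 12 CD4 samples. TNFRSF1B (TNF receptor 2), detected in 1 of 12 CD8 and 9 of 12 CD4 samples, differed by -0.64 ± 0.10. TNFRSF18 (GITR) was detected in 0 of 12 CD8 and 8 of 12 CD4 samples and was at least 1.05-fold higher in CD4 (adjusted p = 0.0011). These 3 called genes passed the filter through CD4 samples alone, a route that favours calls in this direction. IKZF2 (Helios) was at 0.21 and IKZF4 at 0.18, and neither was called.

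T helper 2 and 17 genes gave few tested members. IL4R, the interleukin 4 receptor chain, lay between 8.59 and 9.82 (median 9.35) in CD8 and between 7.84 and 9.04 (median 8.45) in CD4, and was higher in CD8 in 12 of 12 animals (0.77 ± 0.09, adjusted p = 3.24e-06), opposite to CCR4 (-0.39 ± 0.15) and GATA3 of the same list. These 2 calls fell to 0 or 1 when any of 10 animals was left out, all but IgG1 animals 3 and 6. Of the T helper 17 list, 2 of 11 genes were tested, CCR6 at 0.06 (second probe -0.29) and CTSH at -0.07, and 0 passed in limma. With its brighter probe CCR6 lay at 13.50 to 13.77 in CD8 and 13.43 to 13.82 in CD4. Its second probe averaged 6.635 in CD8 and 6.923 in CD4, so the level of CCR6 is uncertain. Among chemokines and type 1 cytokines, 4 of 14 were tested and 1, FLT3LG, was called, at -0.24 ± 0.09; it was not called without anti-IL-15 animal 2 or 4 or IgG1 animal 2 or 5. With anti-IL-15 animal 3 left out, another gene of the list was higher in CD8. CCL5 (RANTES), a chemokine of cytotoxic cells, differed by 0.23 ± 0.11 (adjusted p = 0.102) with its brighter probe, but its dimmer probe, detected in 12 of 12 CD8 and 3 of 12 CD4 samples, gave 1.56 (adjusted p = 1.06e-06 over probes). The 2 probes disagree, so the level of CCL5 is uncertain.

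Chemokine receptors differed in both directions. Of 11 tested of 20 listed, 2 were higher in CD8 and 5 higher in CD4, with a median of -0.04. CCR9, which guides cells to the small intestine, lay between 5.20 and 6.76 (median 5.87) in CD8 and between 6.92 and 8.32 (median 7.80) in CD4, with no overlap and 3.35-fold higher in CD4 (-1.75 ± 0.14, adjusted p = 3.05e-08). GPR183, a receptor for oxysterols in lymphoid tissue, lay between 9.35 and 11.04 (median 10.52) against 10.82 to 12.07 (median 11.69), a difference of -1.09 ± 0.13. CCR2, an inflammatory homing receptor, differed by -0.85 ± 0.16 with its brightest probe, while its others gave -1.02 and 0.20. CCR10, a skin-homing receptor, was higher in CD8 in 12 of 12 animals, at 4.85 to 5.99 (median 5.32) against 4.41 to 5.27 (median 4.79), a difference of 0.59 ± 0.09. CCR7, the lymph node homing receptor by which central memory cells are commonly gated, lay between 7.33 and 8.71 (median 7.88) in CD8 and between 6.97 and 8.16 (median 7.55) in CD4. Its difference of 0.46 ± 0.10 (adjusted p = 0.00121) was not called under median scaling (0.20). CXCR3, CXCR6, CX3CR1 and S1PR5 did not pass the filter. Of 14 integrins and adhesion genes tested of 22 listed, 2 were higher in CD8 and 4 higher in CD4. The former count was 1 without anti-IL-15 animal 4 or 6 or without IgG1 animal 1, 3, 4, 5 or 6. The latter were CD99 at -0.45 ± 0.09, the hyaluronan receptor CD44 at -0.41 ± 0.11, ITGB1 at -0.37 ± 0.14 and CD2 at -0.34 ± 0.08. ITGAL (0.44 ± 0.12) and SELPLG (0.33 ± 0.13) were higher in CD8 but not called under median scaling, at 0.19 and 0.06.

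Cytokine receptors were split between cell types. Of 16 tested of 26 listed, 3 were higher in CD8 and 7 higher in CD4, with a median of -0.11. IL6ST (gp130), the signalling chain of the interleukin 6 family, was detected in 2 of 12 CD8 and 12 of 12 CD4 samples. It lay between 4.61 and 5.39 (median 4.81) in CD8 and between 5.47 and 7.53 (median 6.37) in CD4, 2.82-fold higher in CD4 (-1.49 ± 0.18, adjusted p = 5.89e-06), with no overlap. Its second probe gave -0.90, and IL6R, its partner, was also higher in CD4. Of the 4 interferon receptor chains tested, 3 were higher in CD4, IFNAR2 at -0.57 ± 0.11, IFNAR1 at -0.46 ± 0.11 and IFNGR2 at -0.41 ± 0.12, while IFNGR1 was at 0.05 (adjusted p = 0.737). The interleukin 10 receptor was divided: IL10RA, its ligand-binding chain, lay between 6.38 and 7.31 (median 6.84) in CD8 and between 5.27 and 6.48 (median 6.02) in CD4 (0.86 ± 0.11, adjusted p = 6.98e-06), while IL10RB, the shared chain, had -0.47 ± 0.14. IL2RB, the beta chain that binds interleukin 2 and IL-15, lay between 5.94 and 7.05 (median 6.33) in CD8 and between 5.66 and 6.48 (median 6.11) in CD4. It was higher in CD8 by 0.30 ± 0.09 (adjusted p = 0.0146) and was at 0.07 and not called under median scaling. IL2RG, the common gamma chain, was at 0.13 (adjusted p = 0.406), and IL15RA did not pass the filter. For IL7R, the brighter probe was lower in CD8 (-0.39 ± 0.14, adjusted p = 0.0248) and the dimmer one higher (0.25), so its direction is uncertain.

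Genes of T cell receptor signalling differed by small amounts. Of 19 tested of 31 listed, 6 were higher in CD8 and 4 higher in CD4, with a median of 0.09. Without anti-IL-15 animal 6, 3 were higher in CD8. The kinase ZAP70 lay between 8.17 and 9.01 (median 8.64) in CD8 and between 7.55 and 8.65 (median 8.10) in CD4 (0.59 ± 0.11) and the lipase PLCG1 differed by 0.49 ± 0.10. All 6 calls higher in CD8, which also included LCK, PTPN6, VAV1 and UBASH3A, were lost under median scaling, where LCK (-0.02) and UBASH3A (-0.01) changed sign, and a further LCK probe gave -0.39. The kinase FYN was higher in CD4 in 12 of 12 animals, at -0.43 ± 0.09, and CD5, an inhibitor of receptor signals, differed by -0.37 ± 0.10 and the ERK phosphatase DUSP5 by -0.60 ± 0.15. Of 14 costimulation and TNF family genes tested of 20 listed, 1 was higher in CD8 and 5 higher in CD4, with a median of -0.19, or -0.14 with TNFRSF18 at its bound. The former, TNFSF14 (0.25), was not called under median scaling (0.06), and this count was 0 without anti-IL-15 animal 4 or IgG1 animal 4 or 5. Of the 5 higher in CD4, only TNFRSF10A also passed the filter through CD8 samples. TNFRSF10A, a receptor of the death ligand TRAIL, lay between 7.52 and 8.82 (median 7.94) in CD8 and between 8.27 and 9.56 (median 8.85) in CD4, and was higher in CD4 in 12 of 12 animals (-0.79 ± 0.08, adjusted p = 1.07e-06). CD28 was at -0.21 (adjusted p = 0.104), and its other probe at -0.42 (adjusted p = 0.0213 over probes). Of 3 SLAM family genes tested of 9 listed, 2 were higher in CD4, SH2D1A and SLAMF6 (-0.68 ± 0.13; second probe -0.04). Of 3 GIMAP genes, GIMAP6 had -0.57 ± 0.14 and GIMAP5 0.31 ± 0.09, the latter not called under median scaling (0.05).

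Among genes of memory state and survival, FOXO1 was higher in CD4, and so was BCL2 by its brightest probe. Of 13 quiescence genes tested of 20 listed, 1 was higher in CD8, CCR7, and 5 higher in CD4, with a median of -0.17. These 5 include IL7R, whose probes disagree, and under median scaling the counts were 0 and 6; 2 were higher in CD8 without anti-IL-15 animal 2 or 5. Of 4 tested of 12 naive T cell markers, 2 were higher in CD8, CCR7 and ACTN1 (0.35), both not called under median scaling (ACTN1 at 0.08), and LEF1 was higher in CD4. FOXO1, a factor that maintains resting memory cells, lay between 6.63 and 7.59 (median 7.09) in CD8 and between 7.33 and 8.30 (median 7.63) in CD4, and was higher in CD4 in 12 of 12 animals (-0.62 ± 0.09, adjusted p = 4.39e-05). TXNIP, which restrains glucose uptake, differed by -0.44 ± 0.08, BTG1 by -0.43 ± 0.12 and LEF1, a factor of Wnt signalling, by -0.55 ± 0.12, although a second LEF1 probe gave -0.04. KLF2 (-0.17) and S1PR1 (-0.04), which govern exit from lymph nodes, did not pass. In the BCL2 family, 9 of 15 genes were tested, 1 was higher in CD8 and 4 higher in CD4, with a median of -0.20. Without anti-IL-15 animal 1 or 4, 2 were higher in CD4. BCL2 itself, which blocks cell death, lay between 6.58 and 9.44 (median 7.63) in CD8 and between 7.36 and 10.28 (median 8.61) in CD4, 2.05-fold higher in CD4 and in 12 of 12 animals (-1.04 ± 0.15, adjusted p = 3.42e-05). Its 3 dimmer probes gave smaller differences of -0.34, -0.13 and -0.04 (limma adjusted p = 0.0214, 0.405 and 0.852 over probes). The probe at -0.13 was detected in 12 of 12 samples of each cell type, so the size of the BCL2 difference is uncertain. BBC3 (PUMA), which promotes cell death, had the opposite direction, at 6.11 to 6.85 (median 6.34) in CD8 and 5.42 to 6.15 (median 5.82) in CD4 (0.59 ± 0.10, adjusted p = 0.000199).

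S100 and annexin genes differed in both directions. Of 15 tested of 21 listed, 4 were higher in CD8 and 6 higher in CD4. Of the former, LMNA (0.46) was not called under median scaling (0.20). S100A4 lay between 7.95 and 9.69 (median 8.48) in CD8 and between 7.26 and 7.95 (median 7.73) in CD4 (0.94 ± 0.13) and S100A6 differed by 0.83 ± 0.13, each higher in CD8 in 12 of 12 animals. The annexins ANXA2 (-0.89 ± 0.09), ANXA5 (-0.82 ± 0.11) and ANXA1 (-0.28 ± 0.10) were higher in CD4, as was S100A10 (-0.57 ± 0.09), which binds ANXA2. Of 10 genes of TGF-beta signalling tested of 15 listed, 1 was higher in CD8, LTBP3 (0.51 ± 0.16; 0.25 and not called under median scaling; 2 such genes without anti-IL-15 animal 3 or 4), and 3 higher in CD4, LTBP4 (-1.04 ± 0.15), the corepressor TGIF1 (-0.69 ± 0.11) and SMAD4 (-0.56 ± 0.18). LTBP3 and LTBP4 both bind latent TGF-beta.

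Interferon-stimulated genes did not move as 1 block. Of 13 tested of 24 listed, 3 were higher in CD8 and 6 higher in CD4, with a median of -0.27. IFI27, an interferon-inducible mitochondrial protein, lay between 6.49 and 10.12 (median 8.39) in CD8 and between 5.16 and 8.16 (median 7.05) in CD4, so the groups overlapped widely. Within animals the difference was 1.53 ± 0.09, or 2.9-fold, and had the same direction in 12 of 12 (adjusted p = 3.22e-10). OAS1, an activator of RNase L, had the opposite direction, at 4.83 to 7.54 (median 6.25) in CD8 and 5.05 to 8.67 (median 7.27) in CD4 (-0.84 ± 0.15, adjusted p = 0.000225). HERC5 (-0.46 ± 0.13), IFIT1 (-0.43 ± 0.11) and EPSTI1 (-0.36 ± 0.10) were also higher in CD4, while MX1 was at -0.37 (adjusted p = 0.0734; -0.59 and called under median scaling). ISG15 (0.39 ± 0.11) and IFI44L (0.33 ± 0.10) were higher in CD8 and not called under median scaling (0.14 and 0.15).

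Cell cycle, metabolic and immediate early genes showed mixed, mostly small differences. Of 20 proliferation genes tested of 30 listed, 3 were higher in CD8 and 7 higher in CD4, with a median of -0.17; MKI67 did not pass the filter. Leaving out anti-IL-15 animal 6, IgG1 animal 4 or IgG1 animal 5 gave 4 higher in CD4. Leaving out anti-IL-15 animal 3 gave 5 higher in CD8. AURKB (0.35) was not called under median scaling (0.11). TOP2A, a topoisomerase of dividing cells, lay between 4.41 and 6.31 (median 5.05) in CD8 and between 5.07 and 6.93 (median 6.10) in CD4 (-0.88 ± 0.16, adjusted p = 0.000198), and NUSAP1 differed by -0.67 ± 0.12, though its dimmer probe gave -0.01. Cyclin D genes were opposed, CCND3 at 0.62 ± 0.09 and CCND2 at -0.34 ± 0.12. Of 19 glycolysis genes tested of 23 listed, 0 were higher in CD8, against 17.2% of all genes, and 1 without anti-IL-15 animal 2. Higher in CD4 were 4, led by PGAM1 (-0.74 ± 0.15) and GAPDH (-0.59 ± 0.11), a share near the 23.4% of all genes. The median of this list was -0.07. Of 7 cholesterol synthesis genes tested of 20 listed, SQLE was higher in CD4 (-0.56 ± 0.13) and HMGCS1 (0.43 ± 0.12) and DHCR7 (0.37 ± 0.11) were higher in CD8, both not called under median scaling (0.16 and 0.14). Of 16 immediate early genes tested of 21 listed, 3 were higher in CD8 and 4 higher in CD4, with FOSB at 0.86 ± 0.12, IER5 at -0.85 ± 0.15 and EGR1 at 0.34, the last not called under median scaling (0.18).

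HLA class II genes were higher in CD8 TCM, but mostly in 4 animals and together with monocyte markers. Macaque class II genes are read here by human probes, and DRB probes may share signal between near-identical copies. Of 14 listed genes with CD74, 10 were tested, and 10 were higher in CD8 and 0 higher in CD4, with a median of 0.56, or 0.54 with CD74, not detected in CD4, at its bound of at least 1.05-fold. Under median scaling 8 were called, without HLA-DQB1 (0.33; 0.28 there) and HLA-DRB3 (0.40; 0.20 there). CD74, HLA-DPA1 and HLA-DQB1 passed the filter through CD8 samples alone, a route that favours calls higher in CD8. HLA-DRA lay between 7.34 and 11.77 (median 8.32) in CD8 and between 7.04 and 8.83 (median 7.38) in CD4 (1.39 ± 0.29, adjusted p = 0.000776), and its second probe gave 0.37. HLA-DRB4 differed by 0.998 ± 0.233, but its other probes by 0.188 and 0.436 (limma adjusted p = 0.176 and 0.0778 over probes). HLA-DMA, which loads peptides onto class II molecules, lay between 6.09 and 9.58 (median 7.19) in CD8 and between 5.49 and 6.76 (median 5.99) in CD4 (1.42 ± 0.20, adjusted p = 2.47e-05). The mean difference of the 10 genes within an animal was 1.79 and 1.48 in IgG1 animals 5 and 6 and 1.41 and 1.34 in anti-IL-15 animals 5 and 6, against 0.15 to 0.60 in the other 8.

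The same 4 CD8 samples had the highest monocyte marker levels. The summed intensity of the 14 monocyte and dendritic cell markers was 3094 and 1134 in CD8 samples of IgG1 animals 5 and 6 and 2374 and 1507 in those of anti-IL-15 animals 5 and 6. It ran from 224.1 to 521.1 in the other 8 CD8 samples and from 210.5 to 940.7 in the 12 CD4 samples. In CD4 samples it was 491.7 to 940.7 (median 613.6) in these 4 animals and 210.5 to 788.7 (median 303.8) in the other 8. Principal component 2 (10.0% of the variance) ran from -21.9 to -5.52 in the CD8 and CD4 samples of these 4 animals. It was at -19.5 in the CD4 sample of anti-IL-15 animal 3 and from -4.25 to 16.5 in all others. The cause of this shift was not tested. Of the 5 monocyte genes tested, LYZ (1.43 ± 0.30) and CD14 (0.97 ± 0.25) were higher in CD8. SERPINA1 (-0.43 ± 0.11, second probe 0.01) was higher in CD4, and VCAN (-0.25) and CD163 (0.004) were not called. Below the filter, S100A9 and CSF1R were each detected in 5 of 12 CD8 and 0 of 12 CD4 samples. FCN1 was detected in 5 and 2, CST3 in 4 and 1, FCER1A in 2 and 0 and CLEC10A in 1 and 0. S100A8, S100A12 and MNDA were detected in 0 of 24 samples. CD14 lay between 8.33 and 9.62 in the 4 CD8 samples and between 6.17 and 6.98 in the other 8. Without these 4 animals, a choice made after the data were seen, 3 of 10 class II genes were higher in CD8, HLA-DMA (0.87, adjusted p = 0.000167), HLA-DRA (0.53, adjusted p = 0.00616) and CD74 (0.40, adjusted p = 0.0362), with a median of 0.32. In these 8 animals LYZ was still higher in CD8 (0.62, adjusted p = 0.0266), while SERPINA1 (-0.52) and VCAN (-0.67) were higher in CD4 (each adjusted p = 0.017) and CD14 was at 0.27 (adjusted p = 0.16). Over all genes 743 were then higher in CD8 and 1164 higher in CD4, with 8 animals in the fit. The part of monocyte RNA in the class II difference was not tested. The granule genes were as far apart without the 4 animals, with 9 higher in CD8 and a median of 2.11.

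**Figure D3:**
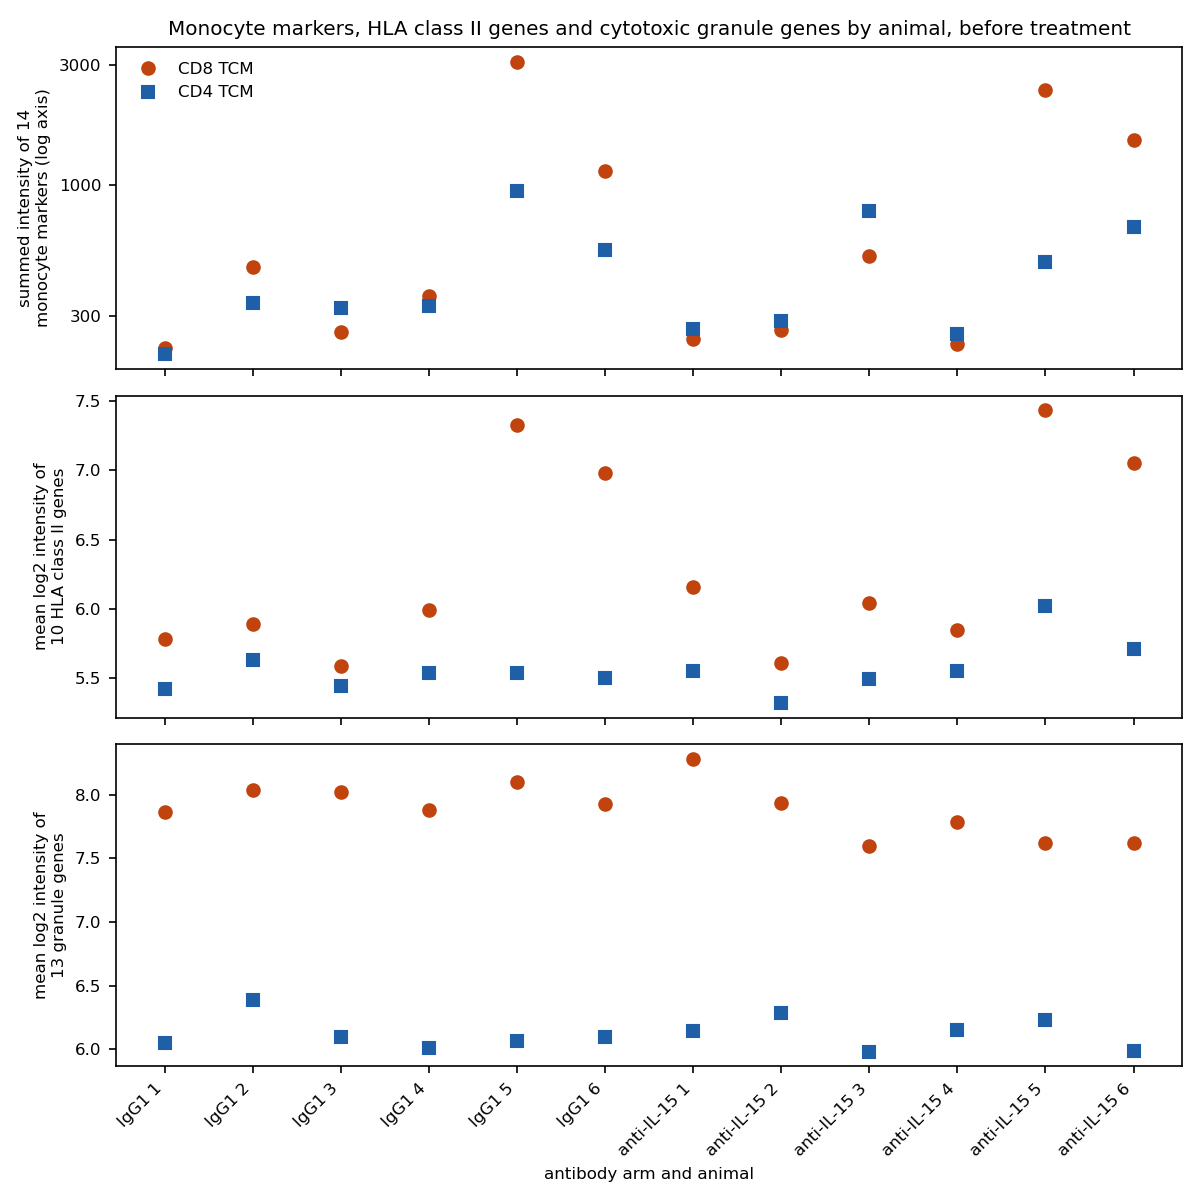
Summed background-corrected intensity of 14 monocyte markers (top, log axis), mean log2 intensity of 10 HLA class II genes (middle) and of 13 cytotoxic granule genes (bottom) in CD8 (orange circles) and CD4 TCM (blue squares) of each animal before treatment. CD8 samples of animals 5 and 6 of both arms have monocyte sums of 1134 to 3094 and class II means of 6.98 to 7.43 (up to 6.16 in the other 8), while the granule genes are separated in every animal.

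Few class I presentation genes were called, while CD79B was higher in CD8. Of 16 class I presentation genes tested of 18 listed, 2 were higher in CD8 and 2 higher in CD4, with a median of 0.11. The 2 higher in CD8, PSMB8 and PSMB10 (0.24), were not called under median scaling (0.14 and 0.15). That count was 4 without anti-IL-15 animal 1. It was 1 when animal 1 or 4 of the IgG1 arm was left out, and likewise for animal 5 or 6 of the anti-IL-15 arm. B2M, the light chain of class I molecules, was at -0.01 (adjusted p = 0.941), and its second probe at 0.21 (adjusted p = 0.0495 over probes). The immunoproteasome subunit PSMB9 differed by -0.43 ± 0.10, and 2 probes of PSMB8 gave 0.36 and -0.70, so its direction is uncertain. CD79B, a signalling chain of the B cell receptor, lay between 7.60 and 9.17 (median 7.93) in CD8 and between 5.40 and 6.90 (median 5.91) in CD4, with no overlap and 4.16-fold higher in CD8 (2.06 ± 0.13, adjusted p = 5.21e-10). Its second probe gave 1.51, and CD79A differed by 0.61 ± 0.11. The B cell markers MS4A1 (CD20) and CD22 were each at 0.05 and did not pass, and TCL1A, VPREB3, PAX5, BLK and FCRLA were detected in 0 of 24 samples. The summed B cell marker intensity ran from 303.8 to 671.9 in CD8 and from 111.8 to 245.5 in CD4 samples. The part of B cell RNA in the CD79B difference was not tested.

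The difference between cell types was compared between the future arms and with the samples taken later. Before treatment, 0 of 8193 genes were called for a CD8 minus CD4 difference that differed between the 6 animals of each arm in limma (lowest adjusted p = 0.624), while 318 passed 0.05 before adjustment. The median SE of this comparison was 0.22. In simulated data it recovered 62.5% of 200 genes given a log2 change of 1, so changes of this size can be missed. After IgG1 a changed difference was called for 0 genes (390 with an unadjusted p under 0.05) and after anti-IL-15 for 0 genes (312). The median SE of each change was 0.23. In this fit the block was animal by time point, so the differences of an animal before and after counted as independent. The pairing of the change within animals was not used, and a count of 0 does not show that the differences stayed the same. Of the 3333 genes called before treatment, 3141 (94.2%) had the same sign in the post-treatment samples of both arms, which come from the same animals. The share over all 8193 genes was not computed, so how far 94.2% exceeds it is not known. GZMM was at 3.41 after IgG1 and 3.58 after anti-IL-15, MAF at -1.77 and -1.92, and CCR9 at -1.45 and -1.64.

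The genes with the widest spread of the difference between animals were not lineage genes. Among 4891 genes detected in all 24 samples, the 10 with the largest SD of the paired differences were HBB, HLA-DRA, RNA28SN5, VMO1, AIF1L, CD14, MIR574, HLA-DRB4, AP1M2 and RPL23AP7. HBB, beta globin, lay between 5.72 and 14.03 (median 11.31) in CD8 and between 8.34 and 14.07 (median 11.25) in CD4, and its difference ran from -3.37 to 1.06 (-0.34 ± 0.29, adjusted p = 0.373). RNA28SN5, a 28S ribosomal RNA gene, lay between 8.97 and 13.26 (median 11.96) in CD8 and between 12.07 and 13.65 (median 13.14) in CD4 (-1.52 ± 0.28, adjusted p = 0.000324), while its other probe gave -0.19. AP1M2, a subunit of a clathrin adaptor, differed by -1.24 ± 0.23 on average but by 1.38 in anti-IL-15 animal 3.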

How the data were processed

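Per the labels' protocols, total RNA of sorted cells was amplified, biotin-labelled and hybridised to Illumina human BeadChips. The authors deposited a table of probe intensity that was not normalized, with a detection p-value per probe and array, and a table of log2 values, 99.95% of which lay within 0.001 of log2 quantile-normalized intensity. The detection p-values were used as deposited by the authors, and the log2 table served as an alternative.

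Intensities of all 49 arrays were corrected and quantile normalized with neqc (limma 3.58.1, R 4.3.3, offset 16), and the 2 arrays of 1 sample were averaged. Probes detected at p below 0.05 in at least 6 of 12 samples of either cell type were kept, 9866 in all, and the brightest per gene was used. A gene dim in either cell type could thus pass through the other alone, which favours calls in that direction. Gene symbols come from GEO's platform annotation as given; 30113 of 47230 probes had 1 symbol, 8 had several and 17109 had none, and only the first were named. The limma model held animal as a block, since labels name the animal of each sample, and p-values were Benjamini-Hochberg adjusted over 8193 genes. They are set against the spread, from animal to animal, of the CD8 minus CD4 difference, while differences in level between animals are removed by the block. Deviations of the paired samples correlated with a median r of 0.427 (0.139 to 0.544). A gene not detected in any sample of a cell type has a lower bound on its fold, set against the higher of that gene's own signal and the lowest detected signal on each array. Marker sums are of linear intensities.

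Named genes are the 15 with the largest difference in each direction among those called and changed one way in 12 animals, and the 10 with the largest SD of paired differences among genes detected in all 24 samples; list members and markers are named besides. Members and lists were chosen with earlier results of these data known. The analysis was tested on simulated data. Figures used matplotlib 3.10.9. Alternatives covered background, scaling, filters, probes, pairing, weights, sorted cell number and left-out animals.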

Additional observations from a re-analysis of the deposited data

Results flagged for a closer look

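In 86 sets of 6 animals, 6 held 1 animal whose gap to the nearest other exceeded Dixon's critical value. The nominal rate of this test is about 1 in 20 sets. That rate does not hold here, because some genes, HBB and AP1M2 among them, were picked for the spread of these same differences. The number of flagged sets can therefore not be compared with chance. In the IgG1 arm, the difference in CTNNA1 was -0.752 in animal 5, against -1.91 to -1.59 in the others, and that in HBB was -2.58 in animal 2, against -0.303 to 1.06. In the anti-IL-15 arm, the difference in MAF was -2.58 in animal 4, against -1.90 to -1.79, and that in HBB was -3.37 in animal 2, against -0.285 to 0.721. AP1M2 was at 1.38 in animal 3 of that arm, the animal whose CD4 sample stood apart, against -2.01 to -1.19. The mean difference of the 13 cytotoxic granule genes was 2.14 in anti-IL-15 animal 1, against 1.38 to 1.65.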

How the results depend on the processing

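Scaling arrays to a common median gave 519 genes higher in CD8 and 2970 higher in CD4, against 1413 and 1920. With sorted cell number as covariate the counts were 30 and 12, and CTNNA1 (0.088), RNA28SN5 (0.737), MIR574 (0.610), HBB (1.26), AIF1L (0.529) and RPL23AP7 (-1.38) changed sign without being called there; the SE is larger by construction, because cell numbers do not overlap. Without animals 5 and 6 of both arms, chosen after seeing the data, 743 and 1164 genes were called in 8 animals, and VMO1 (-0.091) changed sign without being called. With no replicate block, that is without the pairing by animal, 1151 and 1639 were called. Leaving out 1 animal at a time gave 1242 to 1668 genes higher in CD8 and 1750 to 2104 higher in CD4. The other alternatives, for background, filter, probes, variance model, weights and repeated array, stayed within 1.5 times of both counts. Of 1078 values of the 40 named genes over 27 settings, 1037 kept direction and side of the threshold, 27 lost the call, 7 gained it and 7 changed sign. These genes were chosen from the same data for the size or spread of their difference, so the counts do not speak for other genes. Dim human probes limit what can be read of genes below the filter.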
